A study of Homo sapiens with 3 samples.

Results

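The genes described here are 10 transcriptional outputs of the RAS-RAF-MEK-ERK cascade, most of which feed back to restrain it: the phosphatases DUSP4, DUSP5 and DUSP6, the Sprouty proteins SPRY1, SPRY2 and SPRY4, the Sprouty-related proteins SPRED1 and SPRED2, and the ETS transcription factors ETV4 and ETV5. They were taken by gene symbol from the array annotation and are 10 of the 19775 genes with a probe set of their own. They were measured by 24 single-gene probe sets on 3 Affymetrix HG-U133 Plus 2.0 arrays, which read RNA by hybridisation of biotin-labelled cRNA. The first array held control NCI-H1650 cells, the second held NCI-H1650 cells treated with 40 μM colo H (colossolactone H, a fungal triterpenoid) for 12 h, and the third held cells treated at that dose for 24 h. All arrays used total RNA, 6 μg of it per label reaction, and NCI-H1650 is an established human lung adenocarcinoma line that carries an activating EGFR mutation. The labels give no collection time or vehicle for the control cells. Each group was 1 array, so no spread between samples, p-value or standard error exists, and every difference below describes these 3 arrays only.

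Growth factor receptors such as EGFR switch on RAS, which activates the kinases RAF, MEK and ERK in turn. Active ERK induces genes that damp the same cascade at several levels, so that the RNA of these genes is widely read as a gauge of ERK output. Sprouty and SPRED proteins act near receptors and RAS, DUSP phosphatases remove phosphate from ERK itself, and ETV4 and ETV5, the PEA3 group of ETS factors, carry the signal on to further genes. The DNA-binding repressor capicua (CIC) holds several of these genes down until ERK relieves it.

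ETV5 and DUSP6 were higher than in the control on both treated arrays, by 1.94-fold and 1.62-fold at 12 h and by 1.97-fold and 1.504-fold at 24 h. SPRY1 was lower on both, by 1.60-fold at 12 h and 1.43-fold at 24 h. SPRY4 was 1.47-fold lower at 12 h and 1.42-fold higher at 24 h. SPRED1, SPRED2 and SPRY2 differed from the control by at most 1.15-fold at both times, and ETV4 was not above the floor on any array. The direction thus differed from gene to gene. In bulk RNA a change in the number of cells that express a gene and a change in RNA per cell cannot be told apart.

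The deposited signals were linear, and each gene is given by whichever of its single-gene probe sets was brightest. Signals under 61.4, the 50th percentile of all values, were raised to that floor, and a gene with any array above the floor counts as measured, which 9 of the 10 genes and 12351 of all genes were. A difference is log2 of treated over control signal, or of 24 h over 12 h, and 1.5-fold was taken as the size to count.

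RefSeq start sites were in the sequence table used here for 6 of the 10 genes (10 start sites). DUSP4, DUSP5, ETV4 and ETV5 had none there, so no letters before their starts were searched. The 250 bases before the start are shown, 5′ to 3′ on the gene's strand in GRCh38.p14, for DUSP6, which was higher on both treated arrays, SPRY1, which was lower, SPRY4, which went both ways, and SPRY2, which stayed near the control. Where a gene had several start sites, the most upstream is given. Capitals mark CCGGAA on either strand, a form of the ETS site that is longer than the core GGAA. The core alone is not marked and was not counted.
DUSP6 (chr12:89352502-89352751, minus strand): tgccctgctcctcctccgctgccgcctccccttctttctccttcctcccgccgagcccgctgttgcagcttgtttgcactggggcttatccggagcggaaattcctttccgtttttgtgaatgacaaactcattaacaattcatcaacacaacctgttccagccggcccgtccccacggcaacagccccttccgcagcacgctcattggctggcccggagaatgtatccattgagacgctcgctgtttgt
SPRY1 (chr4:123396545-123396794, plus strand): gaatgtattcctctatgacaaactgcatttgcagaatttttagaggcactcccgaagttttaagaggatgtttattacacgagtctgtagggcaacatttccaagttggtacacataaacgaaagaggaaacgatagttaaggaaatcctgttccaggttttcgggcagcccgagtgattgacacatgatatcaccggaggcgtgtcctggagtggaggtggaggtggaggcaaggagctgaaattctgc
SPRY4 (chr5:142324248-142324497, minus strand): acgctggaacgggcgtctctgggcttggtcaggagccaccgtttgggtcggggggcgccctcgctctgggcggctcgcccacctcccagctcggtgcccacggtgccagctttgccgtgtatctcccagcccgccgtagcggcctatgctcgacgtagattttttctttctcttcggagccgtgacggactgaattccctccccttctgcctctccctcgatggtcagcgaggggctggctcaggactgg
SPRY2 (chr13:80341127-80341376, minus strand): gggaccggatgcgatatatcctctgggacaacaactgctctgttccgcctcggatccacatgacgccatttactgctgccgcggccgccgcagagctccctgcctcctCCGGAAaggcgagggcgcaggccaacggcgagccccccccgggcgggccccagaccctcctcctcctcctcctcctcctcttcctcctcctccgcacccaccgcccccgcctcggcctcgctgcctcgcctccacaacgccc
The letters CCGGAA were found in 2 of the 10 windows, at this SPRY2 start and at a second SPRY1 start (chr4:123398136-123398385), and in 14.5% of 35116 windows of that length over all genes. Neither the longer ETS form CCGGAAGT, which contains CCGGAA and is in 3.42% of all windows, nor the capicua octamers TGAATGAA (1.40%) and TGAATGGA (0.832%) was in any of the 10 windows, counting both strands. The same held for the AP-1 site TGACTCA (4.20%) and the CREB site TGACGTCA (1.65%). G and C made up 57.2% of the DUSP6 window, 45.6% of the SPRY1 window, 65.6% of the SPRY4 window and 70.4% of the SPRY2 window, against a median of 58% over all windows. A match is a description of letters and was not tested as a binding site.

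**Figure D1:**
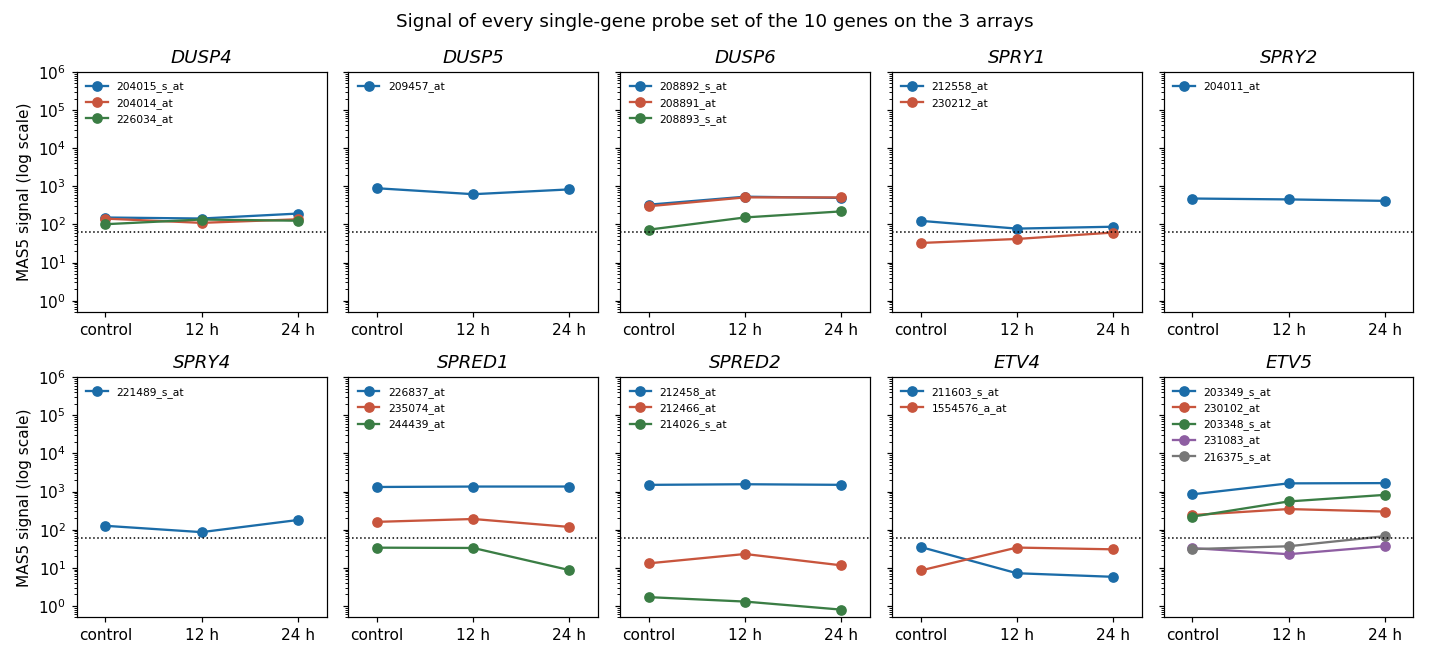
Signal (log scale) of each of the 24 single-gene probe sets on the control, 12 h and 24 h arrays, 1 panel per gene and 1 line per probe set, with the floor of 61.4 dotted; lines join single arrays and carry no error. All 3 DUSP6 probe sets and the 3 brightest ETV5 probe sets are higher on both treated arrays, while both ETV4 probe sets stay under the floor.

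Among the transcription factors is ETV5 (Entrez gene 2119). By brightest probe set it had the largest difference from the control of the 9 measured genes at both times. Its brightest probe set, 203349_s_at, read 844.1 in control cells, 1637 at 12 h and 1662 at 24 h. Both treated arrays thus stood well above the control and close to each other, with a log2 difference of 0.96 at 12 h and 0.98 at 24 h. Of the 12351 measured genes, 68 (0.551%) were at least as far above the control at 12 h and 84 (0.68%) at 24 h.

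The other ETV5 probe sets gave different sizes. Probe set 203348_s_at read 219.4 (control), 549.2 (12 h) and 815.9 (24 h), a 2.50-fold and a 3.72-fold difference from the control. Probe set 230102_at, the transcript-specific one of the measured probe sets, read 241.3, 346.8 and 298.3, or 1.44-fold and 1.24-fold higher. All 3 were higher on both treated arrays, but from 12 h to 24 h the log2 difference was 0.02 for 203349_s_at, 0.57 for 203348_s_at and -0.22 for 230102_at. The _s_ probe sets 203349_s_at and 203348_s_at gave more than the transcript-specific one. The suffix _s_ marks a probe set that can match more than 1 transcript. Another _s_ probe set, 216375_s_at, was above the floor only at 24 h, at 67.4, at least 0.13 above the control in log2 terms, and 231083_at was below it on all arrays. With ETV5 read from its transcript-specific probe set alone the log2 difference was 0.52 at 12 h and 0.31 at 24 h, both under 1.5-fold. With the median signal over all its probe sets taken on each array it was 0.66 and 0.44. That median fell on 203348_s_at in the control and on 230102_at on both treated arrays. Neither value is thus the difference of any single probe set.

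ETV4 (Entrez gene 2118), the close relative of ETV5, was not measured. Its probe set 1554576_a_at read 8.5 in control cells, 33.9 at 12 h and 30.5 at 24 h, and 211603_s_at read 35.1, 7.2 and 5.8 on the same arrays. These signals lie under the floor and go opposite ways, so no difference is given.

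Of the phosphatases, DUSP6 (Entrez gene 1848), the cytoplasmic phosphatase specific for ERK, was higher on both treated arrays in each of its 3 probe sets. Probe set 208892_s_at read 329.3 in control cells, 533 at 12 h and 495.3 at 24 h, which was 0.69 and 0.59 above the control on the log2 scale. The transcript-specific 208891_at read 299.9, 511.4 and 509.1, differences of 0.77 and 0.76. The dimmer 208893_s_at read 72.9, 152.3 and 219.4, differences of 1.06 and 1.59. The brighter pair thus put both treated arrays at nearly one level, whereas the dimmest placed 24 h above 12 h. At 24 h the brightest probe set lay just past the 1.5-fold size, at 1.504-fold. As far above the control or farther were 1.99% of measured genes at 12 h and 4.02% at 24 h.

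DUSP5 (Entrez gene 1847), a nuclear ERK phosphatase, had 1 probe set, 209457_at. It read 886.7 in control cells, 619.8 at 12 h and 828.1 at 24 h. The 12 h array was the low one, at -0.52 against the control in log2 terms (1.43-fold lower), and the 24 h array was at -0.10. DUSP5 was thus lowest on the array where DUSP6 first stood above the control.

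DUSP4 (Entrez gene 1846), the nuclear phosphatase of ERK and other MAP kinases, was dim and its probe sets disagreed. Probe set 204015_s_at read 151.7 (control), 142.7 (12 h) and 192.2 (24 h). Probe set 204014_at read 141.8, 109.8 and 136.1, and 226034_at read 101.2, 134.4 and 124.9. At 12 h the first and second were at -0.09 and -0.37 against the control and the third at 0.41. At 24 h the brightest was at 0.34, 226034_at at 0.30 and 204014_at at -0.06, so the sign depended on the probe set and no direction is given for DUSP4.

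**Figure D2:**
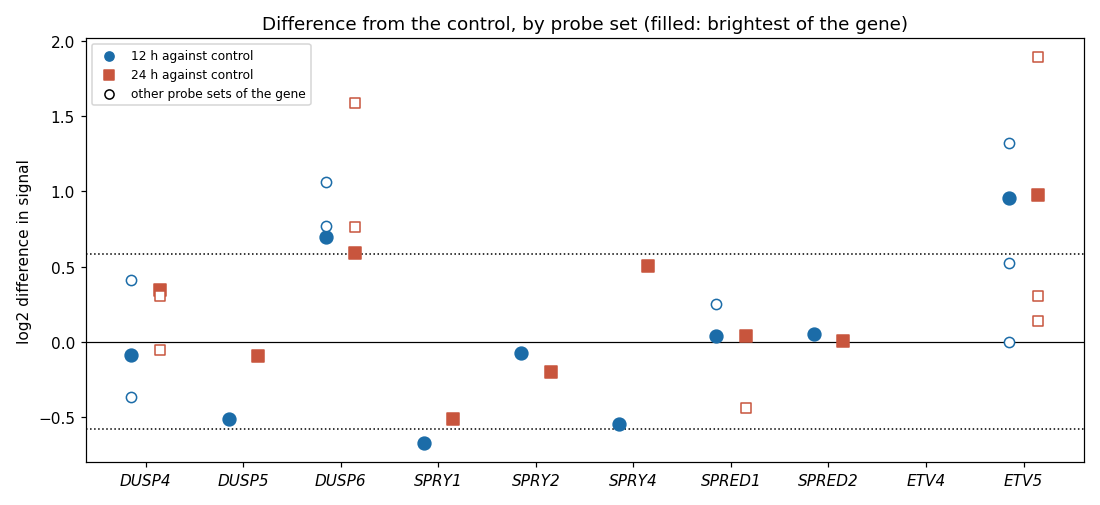
Log2 difference from the control for the 17 probe sets above the floor on at least 1 array, with 12 h as circles, 24 h as squares, the brightest probe set of a gene filled and 1.5-fold dotted; each point compares 2 arrays and has no error. ETV5 and DUSP6 are the genes with points above the upper dotted line, SPRY1 at 12 h is the point below the lower one, and ETV4 has no probe set to show.

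The Sprouty genes went 3 ways. SPRY1 (Entrez gene 10252), an inhibitor of receptor signalling to RAS, read 124 in control cells, 77.6 at 12 h and 86.9 at 24 h on 212558_at. Both treated arrays were below the control, at -0.68 and -0.51 in log2 terms, and the treated arrays lay close to the floor. Its second probe set, 230212_at, was under the floor throughout and went the other way, at 32.6, 41.5 and 61.1. With the median over both probe sets the SPRY1 difference was -0.34 at 12 h and -0.26 at 24 h. Among measured genes 2.09% were as far below the control at 12 h and 6.81% at 24 h.

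SPRY4 (Entrez gene 81848), which acts on the same step, had the single probe set 221489_s_at. It read 126.2 in control cells, 86.1 at 12 h and 178.9 at 24 h. The treated arrays lay on opposite sides of the control, at -0.55 and 0.50, and differed from each other by 2.08-fold. Between 24 h and 12 h SPRY4 was the 1 gene of the 9 past 1.5-fold, and 15 of 12351 measured genes (0.121%) were as far above 12 h or farther. Its signal is low and no other single-gene probe set reads it.

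SPRY2 (Entrez gene 10253), which restrains receptor signalling in the same way, had 1 probe set, 204011_at, and read 477.1, 452.3 and 414.4. It was at -0.08 against the control at 12 h and -0.20 at 24 h, a difference that 25.8% of measured genes reached or exceeded in that direction.

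The SPRED genes stayed near the control. SPRED1 (Entrez gene 161742), which brings the RAS inhibitor neurofibromin to the membrane, read 1316, 1349 and 1352 on 226837_at. Both treated arrays were at 0.04 against the control on the log2 scale. A dimmer probe set, 235074_at, read 160.2, 190.3 and 117.8, or 0.25 at 12 h and -0.44 at 24 h, so it did not follow the brighter one. SPRED2 (Entrez gene 200734), with the same role, read 1495, 1552 and 1498 on 212458_at, differences of 0.05 and 0.00. Its other probe sets, 212466_at and 214026_s_at, were under the floor on all arrays, as was 244439_at of SPRED1.

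Counted over the 9 measured genes, 2 were 1.5-fold or more higher at 12 h, ETV5 and DUSP6, where 3.41% of all measured genes were, and 1 was lower, SPRY1, where 3.1% were. At 24 h the same pair was higher, where 4.09% of all measured genes were, and none of the 9 was 1.5-fold lower, where 4.91% were. Between the treated arrays SPRY4 was 1.5-fold or more higher, where 1.46% of measured genes were, and none of the 9 was lower, where 1.91% were. At 2-fold or more none of the 9 was higher or lower than the control at either time, where 0.445% of genes were higher and 0.437% lower at 12 h and 0.591% and 0.64% at 24 h. Between the treated arrays SPRY4 was past 2-fold as well, where 0.146% of genes were, and none of the 9 was 2-fold lower, where 0.178% were. The background depends on signal: among genes with a geometric mean signal under 200, where SPRY1, SPRY4 and DUSP4 lie, 7.42% were 1.5-fold lower at 12 h, and 4.1% were 1.5-fold higher at 24 h than at 12 h. Between 200 and 1000, where DUSP6 lies, 3.49% were 1.5-fold higher at 12 h and 4.55% at 24 h, and over 1000, where ETV5 lies, 1.51% and 2.23% were. With so few genes, these counts are a description.

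The median log2 difference over the 9 genes was -0.08 at 12 h and 0.04 at 24 h, against 0.00 at both times over all measured genes. Its sign depended on the processing. At 12 h it was 0.05 with the floor at the 65th percentile, and at 24 h it was -0.06 with the median over probe sets, -0.03 with transcript-specific probe sets and 0.19 with the floor at the 25th percentile, so no direction is given for the group. At 12 h 4 of the 9 were above the control and 5 below, where 50.2% of all measured genes were above, and at 24 h 6 were above and 3 below, where 48.8% were above. Between 24 h and 12 h the median was 0.02 against -0.01 (-0.02 when the floor was the 65th percentile), and 6 of 9 were higher, where 46.3% of all measured genes were. The range was wide, from -0.68 to 0.96 at 12 h and from -0.51 to 0.98 at 24 h. Both comparisons with the control use the same control array, and an unusual signal there would enter both. By probe set, 17 of the 24 were above the floor on at least 1 array. Of these, 5 were 1.5-fold or more higher at 12 h, 3 of DUSP6 and 2 of ETV5, against 3.58% of all single-gene probe sets, and the same number at 24 h, against 5.68%. At 12 h 1 was 1.5-fold lower, of SPRY1, against 3.68%, and at 24 h none was, against 5.44%. Probe sets of 1 gene share their RNA and are not replicates.

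**Figure D3:**
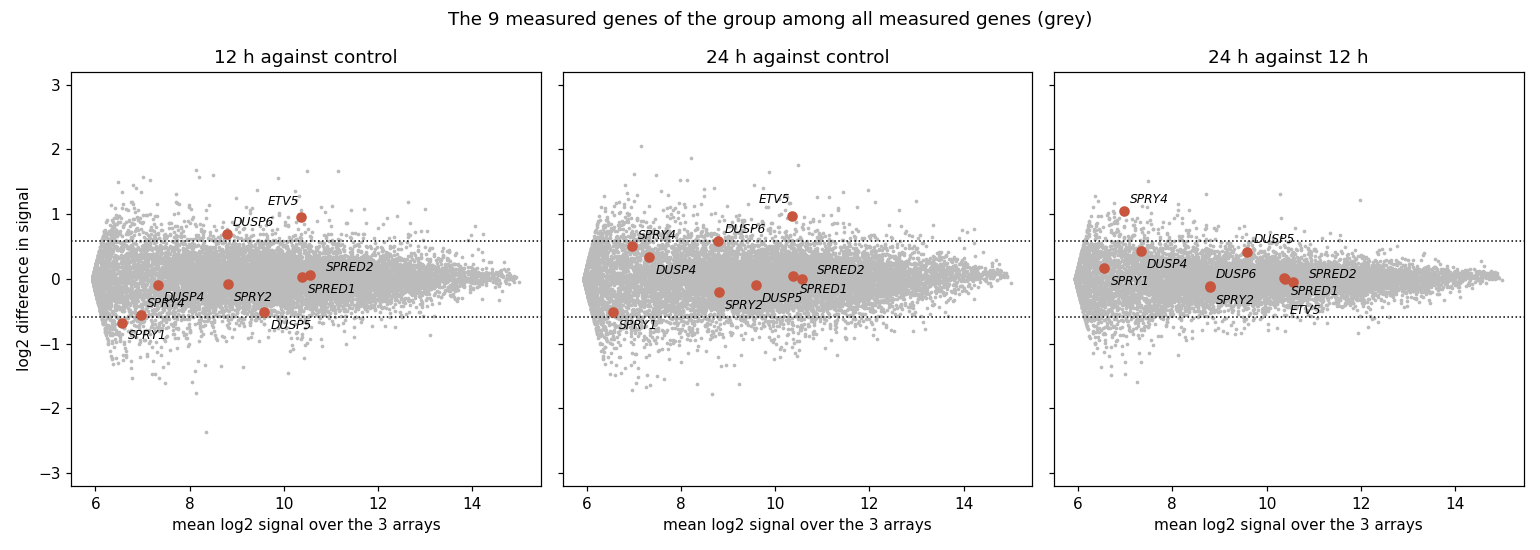
Log2 difference against mean log2 signal over the 3 arrays for the 12351 measured genes (grey) and the 9 measured genes of the group (red, labelled), with a panel for each treated array against the control and one for 24 h against 12 h, 1.5-fold dotted. ETV5 and DUSP6 lie above the upper line in the first and second panels and SPRY4 does in the third, at the low-signal end where grey points spread more widely.

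The wider pathway was read from 6 gene lists, of which 105 of 117 genes had a probe set here and 92 were measured. At 12 h 4 of the 92 were 1.5-fold or more higher and 3 lower, together 7.61%, where 6.51% of all measured genes were past that size. At 24 h 2 were higher and 4 lower, together 6.52%, where 9% of all measured genes were. Among growth factor receptors and adaptors (18 measured) FGFR2, a fibroblast growth factor receptor, was lower on both treated arrays. It read 2693 in control cells, 1410 at 12 h and 1488 at 24 h, and all 4 of its probe sets were lower at both times, between -0.93 and -0.11 at 12 h. GAB2, a docking protein, was below the floor in the control and at least 1.59-fold higher at 12 h and at least 1.42-fold higher at 24 h. EGFR read 2973, 2387 and 2695, differences of -0.32 and -0.14, with 3 of its 5 probe sets lower at 12 h and 5 of 5 at 24 h.

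Of the RAS, RAF, MEK and ERK core, 13 genes were measured. MKNK2, a kinase downstream of ERK that phosphorylates the translation factor eIF4E, was past 1.5-fold at both times. It read 5028 in control cells, 8268 at 12 h and 8412 at 24 h, differences of 0.72 and 0.74, with both probe sets higher. RPS6KA2, a ribosomal S6 kinase activated by ERK, read 102.7, 146 and 183.7, differences of 0.51 and 0.84, and its other probe set was at -0.04 at 24 h. No gene of this list was 1.5-fold lower at either time. Of all measured genes, 3.1% were at 12 h and 4.91% at 24 h. The median of the list was 0.13 at 12 h and -0.01 at 24 h. The 12 h value became 0.0032 with the floor at the 25th or 65th percentile or with no floor, 0.00 with the median over probe sets and 0.06 with transcript-specific probe sets, and the 24 h value became 0.07 with the last of these.

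Among the 11 other inhibitors of the pathway that were measured, LRIG1, which promotes loss of ERBB receptors, was below the floor in the control and at least 1.77-fold higher at 12 h. RASAL1, a RAS GTPase activator, read 69.5 in the control and 104.3 at 12 h, 0.59 higher. At 24 h none of the 11 was past 1.5-fold, where 9% of all measured genes were. The other MAP kinase phosphatases (7 measured) held DUSP10, which acts on the stress kinases JNK and p38. It read 423.4, 295.8 and 269.9, differences of -0.52 and -0.65. Its other measured probe set was at 0.08 at 12 h and -0.21 at 24 h. DUSP10 was the 1 gene of that list past 1.5-fold at 24 h, where 9% of all measured genes were.

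None of the 23 measured genes among other ERK outputs was 1.5-fold higher or lower than the control at either time. Of all measured genes, 6.51% were past that size at 12 h and 9% at 24 h. With so few genes, this count is a description. The median of the 23 was -0.03 at 12 h and 0.17 at 24 h, and 11 and 12 of the 23 were above the control. At 24 h 0.17 became -0.03 with the floor at the 65th percentile. CCND1, cyclin D1, read 2539, 2161 and 2192, differences of -0.23 and -0.21, though a second probe set was at 1.03 at 24 h. EPHA2, an ephrin receptor, and LIF, a cytokine, were 1.5-fold or more higher at 24 h than at 12 h. They were 2 of the 23, where 1.46% of all measured genes were. EPHA2 read 1094, 852.4 and 1281, and LIF read 146.4, 109.5 and 169.9. Like SPRY4, both were below the control at 12 h and above it at 24 h. Other genes of the list did not share that course, among them EGR1 and FOSL1, which were above the control at both times.

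Of 20 measured ETS factors and regulators of ETV4 and ETV5, none was 1.5-fold higher at either time. Over all measured genes 3.41% were at 12 h and 4.09% at 24 h. CIC read 551.5 in control cells, 354.1 at 12 h and 469 at 24 h on 1 probe set, so the 12 h array was the low one, at -0.64, and the 24 h array was at -0.23. ETS1, a founding member of the ETS family, read 4537, 3357 and 2882, differences of -0.43 and -0.65, with 2 of 3 probe sets lower at both times. SPDEF, an epithelial ETS factor, was under the floor on both treated arrays and at least 1.73-fold lower at both times on its brightest probe set, which its other measured probe set did not follow. ETV1, the third PEA3 factor, read 298.3, 270.2 and 319.9, differences of -0.14 and 0.10.

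**Figure D4:**
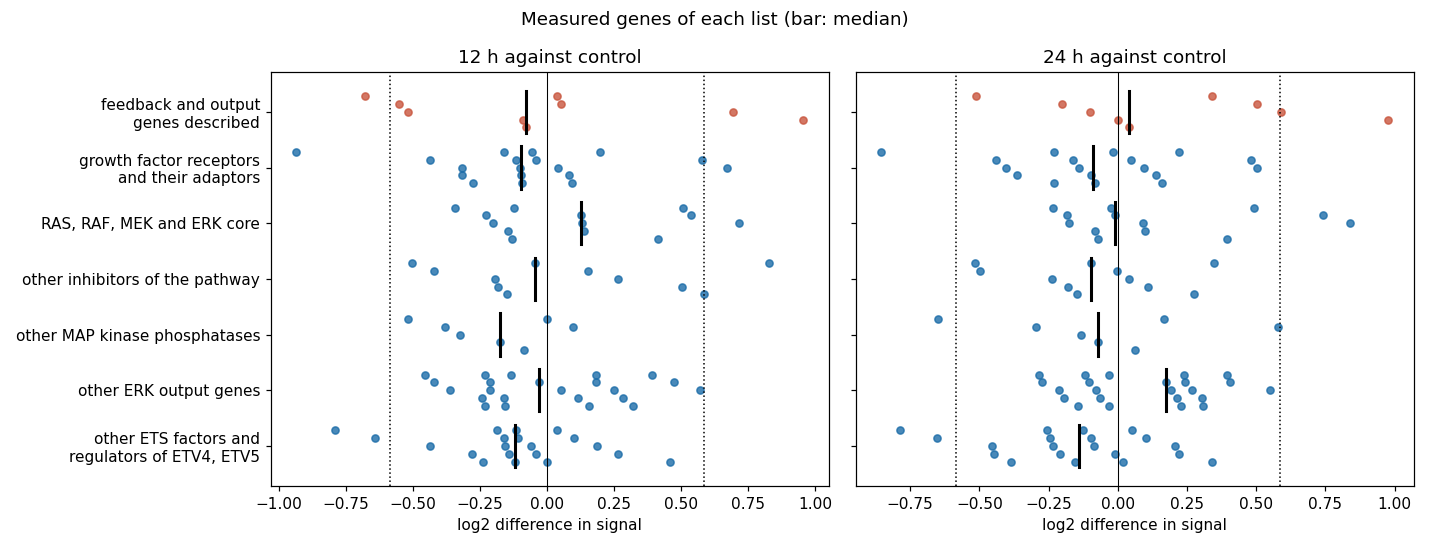
Log2 difference from the control at 12 h (left) and 24 h (right) for the measured genes of the group (red) and of the 6 other pathway lists (blue), 1 point per gene, with black bars for list medians and 1.5-fold dotted. ETV5 is the rightmost red point in both panels, at 0.96 and 0.98. No point of the other ERK outputs passes a dotted line, where 6.51% (12 h) and 9% (24 h) of all measured genes do.

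The arrays were alike in overall signal, with medians between 60.6 and 61.8. As a reading of RNA quality, ACTB signal at the 3′ end divided by that at the 5′ end was 4.95 in control cells, 5.38 at 12 h and 6.55 at 24 h, and for GAPDH the ratio lay between 1.21 and 1.25. Its part in the differences was not tested. Of 10 markers of lung epithelial cells 9 were measured, among them EPCAM, KRT8, KRT18 and CDH1 at between 6185 and 23650 signal units, while the lung lineage factor NKX2-1 was under the floor. CLDN4, a tight junction protein, was 1.61-fold higher at 12 h and 1.72-fold higher at 24 h, and KRT19, a keratin, was 1.45-fold and 1.52-fold lower. Thus 2 of the 9 were past 1.5-fold at 24 h, where 9% of all measured genes were. Leukocyte markers summed to between 361.9 and 426.8 over 9 genes, of which 2 were measured. CSF1R read 198.4, 186.3 and 179.5 and ITGAM 73.7 in the control and under the floor after treatment, with PTPRC, CD3E and CD14 under the floor throughout. Fibroblast and endothelial markers summed to 2344, 2005 and 1628 over 10 genes, with COL1A1, COL3A1, FAP and PECAM1 measured and PDGFRB, DCN, LUM and CDH5 under the floor. By brightest probe set the measured ones were lower on the treated arrays, like SPRY1, and their part in the SPRY1 difference was not tested. Every measured probe set of COL3A1, FAP and PECAM1 was lower. For COL1A1 1 of 3 was lower at 12 h and 2 of 3 at 24 h, the highest being at 0.87 and 0.50.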

How the data were processed

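The authors deposited linear signal intensity values, with MAS5 named as the tool in the submitters' processing notes; its version and settings are not given in the sources used here. Per the labels, treated cultures were seeded with 1000000 cells in a 10 cm dish. With 2% trimmed at either end the mean signal was 500.1 on each array, and no further scaling was applied. Of 54675 probe sets, 41097 had 1 gene in the platform annotation, 1801 several (not used) and 11777 none; 41043 matched a gene record by Entrez identifier. Differences were computed in Python 3.11.15 (pandas 2.3.3). The fold rule and counting were run on simulated data with planted changes much larger than 1.5-fold and little noise. That run checks the code only and does not show how reliable a 1.5-fold difference is on these arrays. Of each other list, up to 4 measured genes past 1.5-fold against the control were named, with EGFR and CCND1; EPHA2, LIF, ETV1 and the markers named were picked with their values in view. The genes and lists were chosen with earlier results of these data known. List genes without a probe set here were not analysed here. Alternatives used limma 3.58.1 for quantile and cyclic loess scaling, median centring, floors at the 25th and 65th percentile, no floor with a pseudocount of 1, other probe set rules and a 2-fold size. With 1 array per group, the number of arrays limits the precision.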

Additional observations from a re-analysis of the deposited data

Results flagged for a closer look

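SPRY4 lay on opposite sides of the control at the 2 times, at -0.55 on the log2 scale at 12 h and 0.50 at 24 h. It is listed because the single array of each time moved the opposite way and the arrays differed by 2.08-fold. The difference was not tested, since each time had 1 array, and SPRY4 has 1 probe set with signals of 126.2 (control), 86.1 (12 h) and 178.9 (24 h).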

How the results depend on the processing

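Counts are of genes 1.5-fold or more from the control unless another size is named, and the cause of a change was not tested except where fewer genes were measured. Under median centring, quantile normalization and cyclic loess every count of the 9 genes (12 h 3, 24 h 2, between treated arrays 1) stayed within 1.5 times its value. With the floor at the 65th percentile (192.4) 6 of the 10 genes were measured. The lower count at 12 h then went from 1 to 0 because SPRY1 was not measured. The count between the treated arrays went from 1 to 0 because SPRY4 was not. DUSP4 was not measured either, but it was in neither count. With the median over probe sets the 12 h lower count was 0, the 24 h count was 1 (higher 1), and that between treated arrays was 2, with 1 lower, SPRED1 at -0.69. With transcript-specific probe sets the 12 h higher count was 1, the 24 h count 1 (higher 1), and the count between treated arrays 0, as SPRY4 has no such probe set. At 2-fold the counts against the control were 0 at 12 h (0 higher, 0 lower) and 0 at 24 h (0 higher). Over the 6 pathway lists the 24 h count was 6, and 18 with the floor at the 25th percentile or with no floor, 3 with the median over probe sets and 0 at 2-fold. DUSP6 was past 1.5-fold at both times under 9 of 9 settings, the reported one included. ETV5 was so under 8 of 9 at 12 h and 7 of 9 at 24 h, in each case above the control. Apart from the median and transcript-specific rules, these settings reread the same brightest probe set, so their agreement is not independent. Under the median rule DUSP6 was at 0.77 (12 h) and 0.72 (24 h) and ETV5 at 0.66 and 0.44. With transcript-specific probe sets DUSP6 was at 0.77 and 0.76 and ETV5 at 0.52 and 0.31. Under both of these rules DUSP6 was thus farther from the control than ETV5, the reverse of their order by brightest probe set. SPRY4 was on opposite sides of the control under the 7 settings that measured it, all of which read its only probe set. DUSP4 and SPRED1 turned at 24 h, to -0.06 and -0.44, with the median over probe sets. ETV4 counts as measured with the floor at the 25th percentile, at 1.44 and 1.29, on a probe set that its other one contradicts. No paired analysis was possible because each group has 1 array.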
